A study of Oncorhynchus mykiss with 13 samples.

Results

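Described here are 4 of the 9023 clones on a rainbow trout cDNA array. Among the 90 clones that the study's tables name, these are the ones named after proteins of blood clotting or of its control. They are both protein S clones of the study's tables, tcbk0006.j.01 (# 199) and tcay0036.n.19 (# 200), the clone of coagulation factor V (#235 cf5, tcbk0057.a.03) and a clone similar to clotting factor C of a horseshoe crab (#251 clotting factor C-like, tcbk0053.e.07). They were chosen by name from these tables, whose clones the study had placed in 3 clusters and had selected on the same 13 arrays because their signal differed between ovarian stages. The direction and the size of the stage differences below are therefore a description, without a test. Both protein S clones belong to 1 UniGene cluster and count as 1 gene, and the names of all 4 rest on similarity to proteins of cattle or of the horseshoe crab, not on characterized trout sequences. The similarity score was lowest for the factor C-like clone, for which the study lists no UniGene cluster. Whether that clone encodes a clotting protein was not tested.

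Blood clotting is a cascade of serine proteases and their cofactors that ends in thrombin and a fibrin clot. In mammals, activated factor V is the cofactor with which factor Xa turns prothrombin into thrombin, and protein S is a vitamin K-dependent cofactor of activated protein C, the protease that inactivates activated factor V. Protein S thus restrains the step that factor V drives. The study's entry for the cf5 clone also names factor V as a cofactor of activated protein C. Clotting factor C is a serine protease zymogen of horseshoe crabs that starts clotting of the hemolymph on contact with bacterial endotoxin. The ovarian follicle is enclosed by a vascular theca, and in fish the oocyte takes up yolk precursors that reach it with the blood.

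Ovaries came from 13 separate rainbow trout females of an autumn-spawning strain, 2 years old and in their first reproductive season, divided over late vitellogenesis (3 females), post-vitellogenesis (4 females) and oocyte maturation (6 females). The labels name no treatment and no genetic modification in any group, and stage was set from oocyte morphology. In late vitellogenesis (females 2, 3 and 4) the germinal vesicle was not visible. In post-vitellogenesis (females 13, 14, 15 and 31) it could be visible near the periphery while the yolk had not yet changed, and it is recorded as peripheral for female 14. In oocyte maturation (females 25 to 30) the yolk had cleared and meiosis had resumed, around germinal vesicle breakdown. Full ovarian tissue was used, so oocytes, follicle cells, vessels and remaining blood were measured together, and fewer cells of a type cannot be told apart from less RNA per cell.

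RNA of each female was hybridized to 1 nylon array, and each value is the ratio of a spot's corrected signal to the median of its array, so that 1 is the level of the median spot. Of the 9023 clones, 8077 were above 0 on every array, among them all 4 clotting clones, and within a stage the arrays correlated at 0.913 to 0.981 across clones (Pearson r of log2 ratios). The follicle cell marker aromatase (cyp19a1, # 196 and 198) was measured in every female. Its summed ratio was 21.2 to 31.1 in the late vitellogenic females, 3.20 to 22.4 in the post-vitellogenic and 1.56 to 2.41 in the maturing ones. The study describes this fall as reduced expression of estrogen synthesis genes, so the ratio is not read here as an amount of follicle cells. The ratio of a blood cell marker, similar to RGS18 (# 242), was 0.396 to 0.549 in the 7 earlier females and 0.638 to 1.38 in the maturing ones. The summed ratio of the smooth muscle markers, similar to caldesmon and smoothelin (# 225 and 249), was 1.39 to 2.07 and 5.22 to 7.63. None of these 5 marker clones was at 0 in any female. All of them moved with stage together with the clotting clones. They come from the same tables of the study, whose clones were selected for differing between stages on these arrays. That they moved with stage is therefore no independent evidence, and their part in the values below was not tested.

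Protein S, named after an anticoagulant cofactor of mammals, was high in late vitellogenesis, variable between females in post-vitellogenesis and low in maturing ovaries. For clone # 199 the ratio was 4.50, 6.10 and 5.80 in females 2, 3 and 4, that is 5.47 ± 0.853 (SD, n = 3). In post-vitellogenesis it was 5.53 in female 13, 3.07 in female 14, 7.22 in female 15 and 1.20 in female 31. In the maturing females 25, 26, 27, 28, 29 and 30 it was 0.807, 1.47, 1.52, 1.12, 1.002 and 0.784. Females 13, 14 and 15 thus lay above every maturing female, while female 31 lay inside the maturing range.

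Clone # 200 repeated this picture female by female. Its ratio was 5.34, 7.45 and 7.93 in females 2, 3 and 4, or 6.91 ± 1.38 (SD, n = 3). It was 6.53, 3.86, 8.60 and 1.20 in the post-vitellogenesis females 13, 14, 15 and 31. In the maturing females 25 to 30, in numerical order, it was 0.992, 1.61, 1.75, 1.50, 1.51 and 0.974, or 1.39 ± 0.329 (SD, n = 6). Female 31 was again the single earlier female within the range of maturation. The mean log2 difference from late vitellogenesis to maturation was -2.33 ± 0.39 (SE of the limma fit) for # 199 and -2.33 ± 0.41 for # 200, which corresponds to geometric means 5.02-fold and 5.03-fold lower. From post-vitellogenesis to maturation the differences were -1.69 ± 0.35 and -1.57 ± 0.38. Between late vitellogenesis and post-vitellogenesis they were -0.64 ± 0.42 and -0.76 ± 0.45, with overlapping females. The SE of the fit, and the limma calls below, use 1 variance per clone over the 3 stages. The SD of the log2 ratios was 1.15 (# 199) and 1.26 (# 200) in post-vitellogenesis. It was 0.24 and 0.31 in late vitellogenesis, and 0.41 and 0.37 in maturation. For differences that involve post-vitellogenesis the SE is therefore too small. By real-time PCR, in more females that included these, the study reported protein S lower in maturation than in either earlier stage. It reported no significant difference between the earlier stages.

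Coagulation factor V (cf5), named after a procoagulant cofactor of mammals, had the opposite course, with no maturing female inside the earlier range. Its ratio was 0.206, 0.120 and 0.185 in females 2, 3 and 4, and 0.171, 0.154, 0.166 and 0.185 in females 13, 14, 15 and 31. In the maturing females 25 to 30, in numerical order, it was 1.51, 2.85, 2.32, 2.09, 1.05 and 2.03. The lowest maturing female (29) thus stood at 1.05 and the highest earlier one (female 2) at 0.206, so the stages did not overlap. The log2 difference from post-vitellogenesis to maturation was 3.48 ± 0.22 (SE), or 11.2-fold, while that from late vitellogenesis to post-vitellogenesis was 0.02 ± 0.26. The means of late vitellogenesis and post-vitellogenesis were 0.170 ± 0.0449 (SD, n = 3) and 0.169 ± 0.0127 (SD, n = 4), close to each other relative to this spread. All of these earlier ratios stood at percentiles 0.295 to 0.668 of the clones above 0 on their arrays. A change between the earlier stages may not be seen there on the array. The study also measured cf5 by real-time PCR, in more females that included these. It reported no significant difference between the earlier stages by that method. The rise of cf5 to maturation that it reported by PCR was far larger than the fold on the array.

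The clotting factor C-like clone was also higher in maturation, by less. Its ratio was 0.277, 0.137 and 0.186 in females 2, 3 and 4, and 0.192, 0.282, 0.226 and 0.245 in females 13, 14, 15 and 31. It was 0.526, 0.503, 0.640, 0.644, 0.357 and 0.538 in the maturing females 25 to 30. All 6 maturing females lay above all 7 earlier ones, with a narrow gap between female 29 (0.357) and female 14 (0.282). The log2 difference was 1.17 ± 0.19 (SE) from post-vitellogenesis to maturation, or 2.24-fold, and 1.45 ± 0.21 from late vitellogenesis, or 2.74-fold. From late vitellogenesis to post-vitellogenesis it was 0.29 ± 0.22, with overlapping females.

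**Figure D1:**
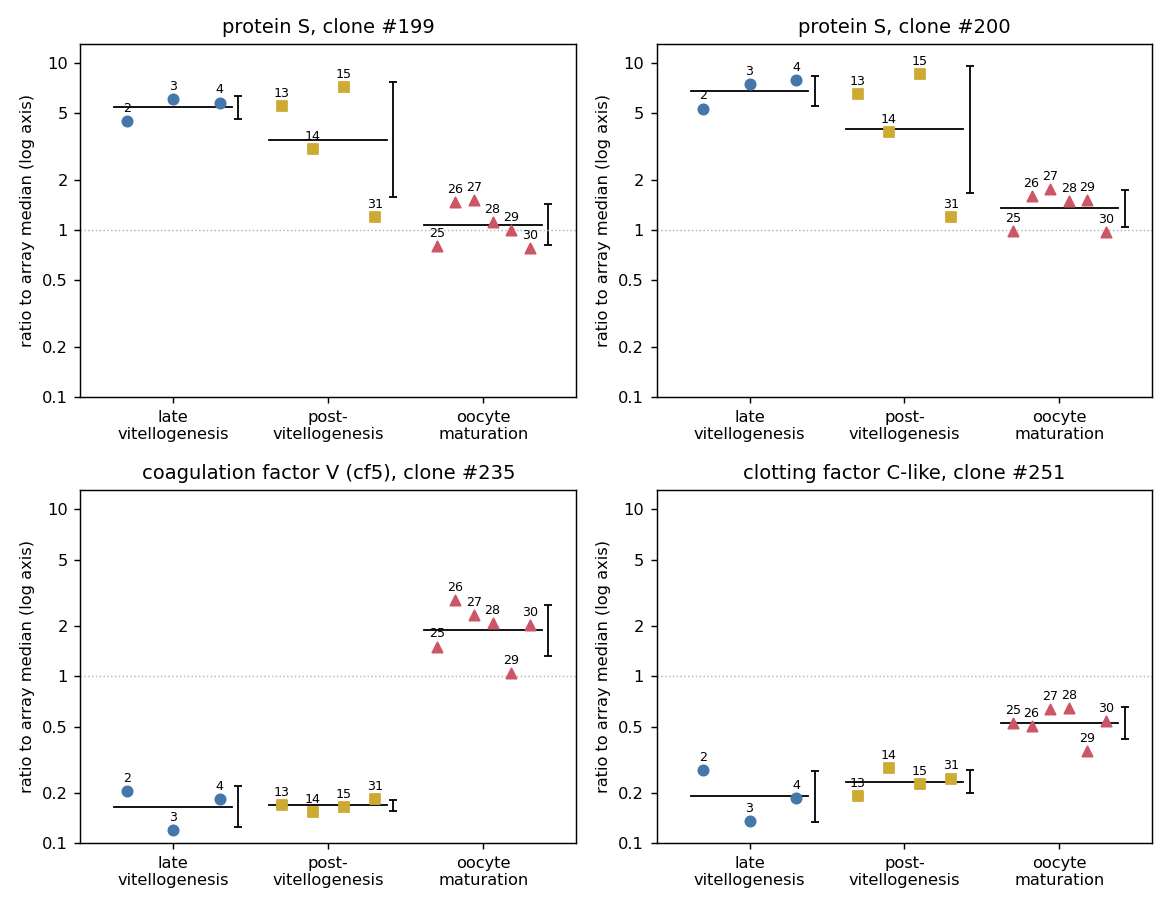
Ratio to the array median (log axis) of the 4 clotting clones in each of the 13 females, numbered, by stage. Horizontal lines are geometric means and bars beside them 1 SD of the log2 ratios (n = 3, 4 and 6). Both protein S clones are lower in maturation, with female 31 among the maturing values at 1.20, and cf5 and the factor C-like clone stand higher in all 6 maturing females than in all 7 earlier ones.

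The whole array gives the background to these differences. Between late vitellogenesis and post-vitellogenesis, limma called 0 of the 4 clones, beside 0.0248% of the 8077 clones, in either direction (adjusted p under 0.05 after Benjamini-Hochberg adjustment over all of them). At an unadjusted p under 0.05 0 of the 4 and 240 of the 8077 passed. From post-vitellogenesis to maturation it called both protein S clones lower, beside 2.76% of all clones, and cf5 and the factor C-like clone higher, beside 1.81%. The protein S calls in this comparison were lost for both clones with 0.1 added to every ratio and without female 15, and for # 200 also without female 13 or 14. From late vitellogenesis to maturation the same 2 clones were called lower, beside 1.57%, and the same 2 higher, beside 2.46%. For the 7 females before meiosis resumption against the 6 maturing females, these backgrounds were 4.77% lower and 4.09% higher, and the 4 clones were called in the same directions. Groups without any overlap in that comparison were found for 0 of the 4 clones with all maturing females lower, beside 1.63% of all clones. They were found for cf5 and the factor C-like clone with all maturing females higher, beside 1.78%. Nothing is read from these counts about the 4 clones, since they had been chosen for such differences.

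By size of the log2 difference from post-vitellogenesis to maturation, cf5 ranked 4th among all clones in the upward direction and the factor C-like clone 37th. Protein S # 199 and # 200 ranked 5th and 6th in the downward direction. The median difference over all 8077 clones was 0.01 on the log2 scale. In the earlier step, from late vitellogenesis to post-vitellogenesis, protein S # 200 ranked 10th and # 199 17th in the downward direction, with female 31 in the later group.

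**Figure D2:**
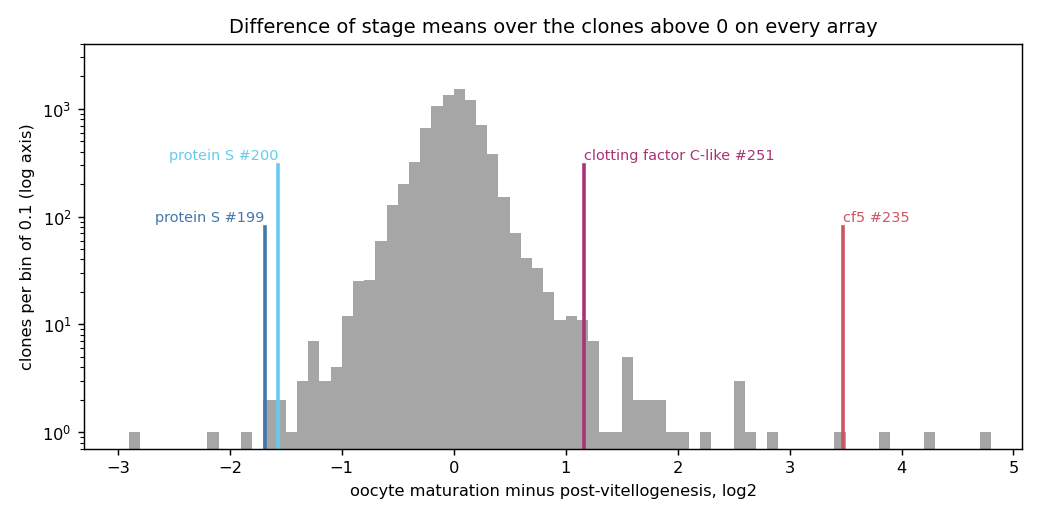
Histogram of the log2 difference of stage means, oocyte maturation minus post-vitellogenesis, over the 8077 clones above 0 on every array (count per bin on a log axis). Vertical lines mark protein S at -1.69 and -1.57, the factor C-like clone at 1.17 and cf5 at 3.48.

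The 4 clones differed in how far each post-vitellogenesis female lay from late vitellogenesis. For each of these females the position was taken as the share of the distance, in log2, from the mean of late vitellogenesis (0%) to that of maturation (100%). For protein S, female 31 had gone 93.5% of the way on clone # 199 and 108% on clone # 200. Female 14 was at 35.2% on both clones. Female 13 was at -1.2% and 2.6%, and female 15 at -17.8% and -14.4%, so these fish lay at or above the mean of late vitellogenesis.

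For cf5 every post-vitellogenesis female lay near the starting level, with positions of 1.2%, -3.0%, -0.02% and 4.5% in females 13, 14, 15 and 31. In these 4 females cf5 was below the 1st percentile of the clones above 0 on each array, where a small movement may not be seen. Female 31, close to the maturing mean on protein S, was thus close to the late vitellogenic mean on cf5. For the factor C-like clone the positions were 0.04%, 38.4%, 16.2% and 24.1% in the same order. That clone's ratios were also near the low end of the arrays in all of these females, and with quantile normalization the position of female 31 moved to 7.7%.

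The 125 clones that limma called lower between late vitellogenesis and maturation, without the protein S clones, had a median position of 41.7% in female 31, 21.7% in female 13, -6.6% in female 14 and -4.7% in female 15. Female 31 was thus the farthest of the 4 on this wider set too, though with its quartiles at 19.9% and 62.3% it was less far than on protein S. The 197 clones called higher, without cf5 and the factor C-like clone, had medians of 25.7% in female 31, 32.4% in female 14, 13.1% in female 13 and 14.5% in female 15. Cf5 was below the lower quartile of that set in female 31 (6.3%) and in female 14 (8.9%). It was above that quartile in female 13 (-0.67%) and in female 15 (-1.6%).

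**Figure D3:**
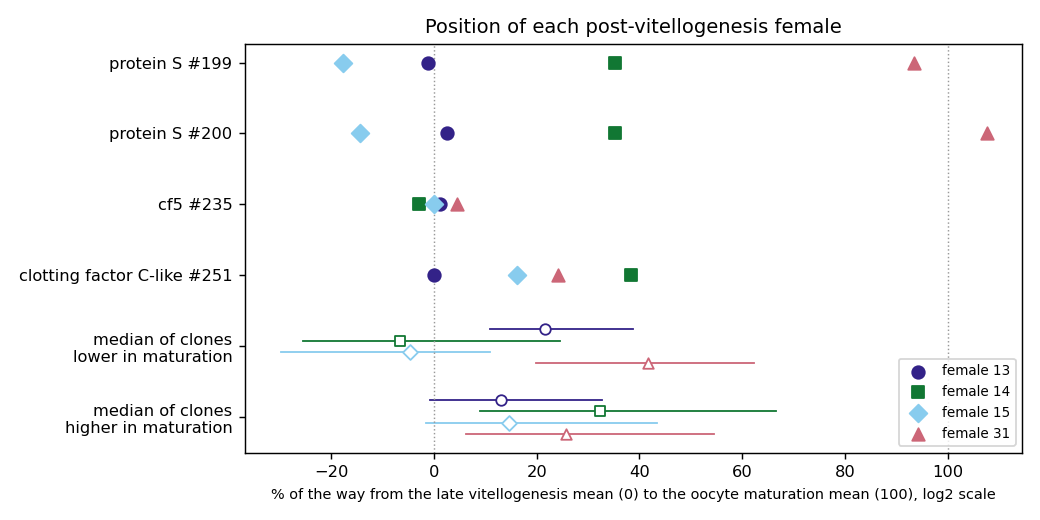
Position of the 4 post-vitellogenesis females between the mean of late vitellogenesis (0%) and that of oocyte maturation (100%) on the log2 scale, for each clotting clone (filled symbols), with the median and quartiles over the other clones that limma called lower (125) or higher (197) in maturation (open symbols with lines). Protein S spreads from -17.8% in female 15 to 108% in female 31, and cf5 keeps all 4 females within 4.5% of 0.

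This spread between post-vitellogenesis females was large for the array. The SD of the log2 ratios over the 4 females was 1.26 for protein S # 200, rank 3 of 8077 clones, and 1.15 for # 199, rank 8, against an array median of 0.18. The clones with the higher SDs than # 200 were an aquaporin 4 clone (# 305), high in female 14, and aromatase # 198. Both protein S clones and both aromatase clones put the 4 females in the same order, female 15 first, then 13, 14 and 31, an order shared by 2.44% of all clones. For aromatase # 196 the ratios in that order were 13.4, 6.62, 3.33 and 2.24. The study placed protein S and aromatase in the same cluster by correlation on these arrays. It described that cluster as intermediate or variable in post-vitellogenesis. The spread and the shared order of these clones are therefore a description and no independent evidence. The SD in post-vitellogenesis was 0.11 for cf5 and 0.23 for the factor C-like clone, both at ratios near the low end of the arrays, so no stability is read from them.

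In maturation the spread had another pattern. Protein S had an SD of 0.41 (# 199) and 0.37 (# 200) on the log2 scale over the 6 females, cf5 0.51 and the factor C-like clone 0.31, against an array median of 0.22. The SD of cf5 was equalled or passed by 2.91% of clones. Female 29 was the lowest maturing female for cf5 and for the factor C-like clone, and was at 1.002 and 1.51 for protein S, in the middle of its stage. Female 29 was also the lowest maturing female in 30.6% of the 144 clones that were higher in all maturing females.

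Both clones of protein S gave nearly the same values. The log2 ratio of # 200 over # 199 within an array averaged 0.29 ± 0.15 (SD over 13 females), from -0.003 in female 31 to 0.60 in female 29. Its mean was 0.33 in the late vitellogenic females, 0.20 in the post-vitellogenic and 0.33 in the maturing ones, so the clones changed by like amounts. For comparison, the SD of this log2 ratio was 0.24 for the aquaporin 4 pair (# 305 and 306) and 0.69 for the aromatase pair, whose clones changed by different amounts.

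**Figure D4:**
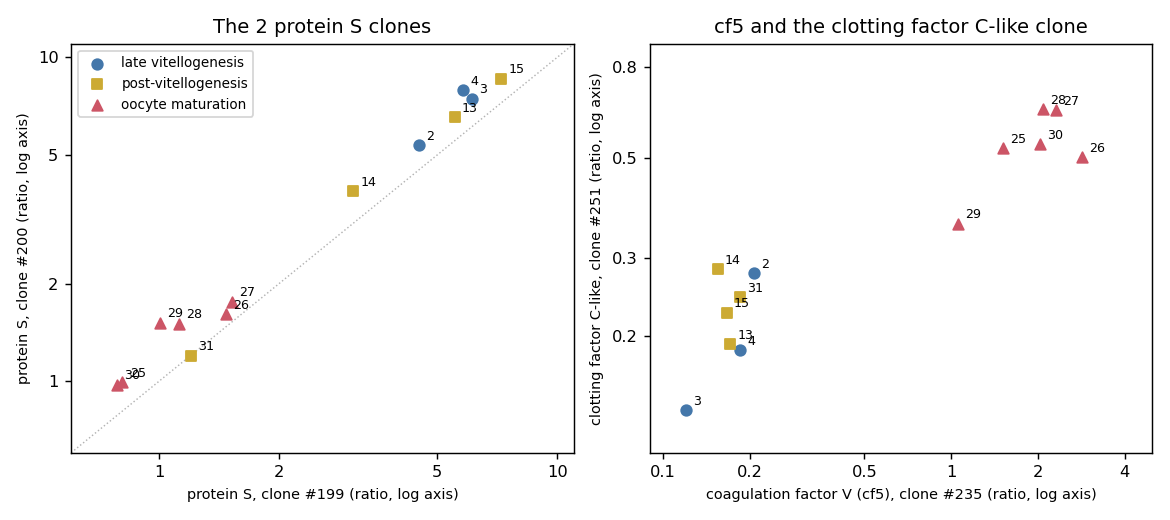
Ratios of the protein S clones # 199 and # 200 (left, dotted line of equality) and of cf5 and the clotting factor C-like clone (right) in the 13 females, on log axes, with symbols by stage. The protein S points follow the line with female 31 among the maturing females, and the right panel shows 6 maturing females apart from 7 earlier ones, with female 29 the lowest maturing female on both axes.

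Whether females high in one clotting clone were high in another was examined within the 7 earlier females, late vitellogenesis and post-vitellogenesis together, and within the 6 maturing females, for 6 pairs of clones. This gave 24 correlations of log2 ratios, each with a two-sided exact permutation test and Benjamini-Hochberg adjustment over the 24. Among the earlier females the protein S clones had r = 0.996 (exact permutation p = 0.000794, adjusted p = 0.0190) and rho = 0.964 (exact permutation p = 0.00278, adjusted p = 0.0333). Without the 2 females farthest from the median, r was 0.945. Among the maturing females they had r = 0.915 (exact permutation p = 0.00833, adjusted p = 0.0667) and rho = 0.943 (exact permutation p = 0.0167, adjusted p = 0.10), with r = 0.962 without the 2 farthest, and did not pass after adjustment. Both clones count as the same gene, and the study's clustering by correlation on these arrays had placed them side by side. Their correlation is therefore no evidence of a link between different clotting genes.

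None of the other 20 correlations passed (lowest adjusted p = 0.424 by the exact permutation test). Cf5 and the factor C-like clone had r = 0.711 and rho = 0.371 among the maturing females (exact permutation p = 0.161 and 0.497, adjusted p = 0.430 and 0.681). Leaving out the 2 farthest gave r = 0.761, and with single females left out it ran from 0.01 without female 29 to 0.947 without female 26. Among the earlier females the same pair had r = 0.661 and rho = 0.321 (exact permutation p = 0.141 and 0.498), and r = -0.59 without the 2 farthest females. Protein S # 199 and cf5 had r = -0.28 among the earlier females and 0.57 among the maturing ones (exact permutation p = 0.529 and 0.239). With 6 females the smallest p that the two-sided exact permutation test of r or rho can give is about 0.00278, before adjustment.

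The rises of cf5 and of the factor C-like clone started from ratios near the low end of the arrays. In the 7 earlier females cf5 stood at percentiles 0.295 to 0.668 of the clones above 0 on its array, and in the 6 maturing females at percentiles 48.9 to 86.7. The factor C-like clone stood at percentiles 0.654 to 3.99 and then at 7.05 to 26.6. Both were above 0 on every array. Of the 64 water spots of an array 63 or 64 were at 0, and on 11 arrays 1 water spot stood at 1.49 to 2.02, so the water spots set no background level for these ratios. The 5th percentile of clones above 0 was a ratio of 0.244 (female 3) to 0.410 (female 30), and in female 3 it was lowest, as were cf5 and the factor C-like clone. With 0.1 added to every ratio, the rise of cf5 from late vitellogenesis was 2.89 in place of 3.50 on the log2 scale, and that of the factor C-like clone 1.09 in place of 1.45. Protein S was well inside the range of the arrays, at percentiles 30.1 to 97.8.

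**Figure D5:**
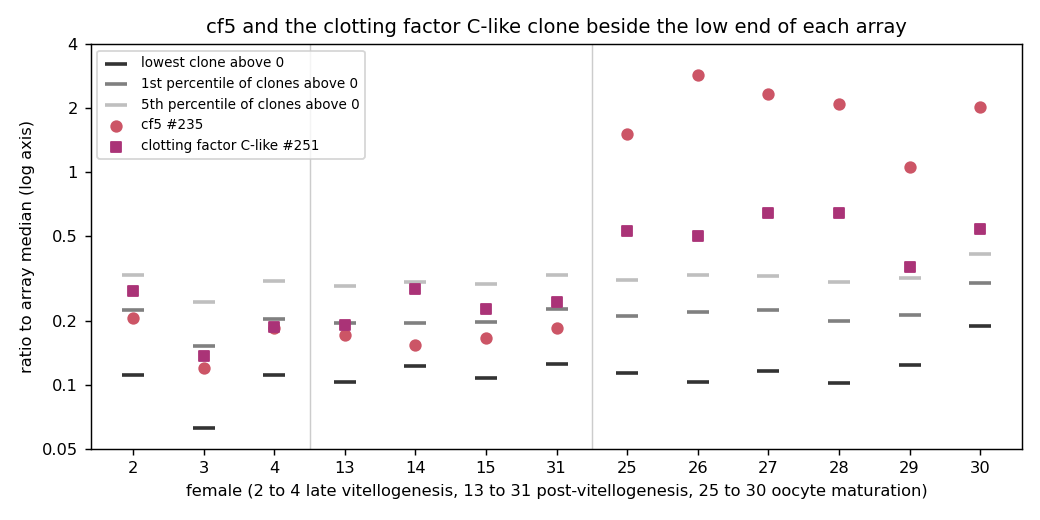
Ratio to the array median (log axis) of cf5 and of the clotting factor C-like clone in the 13 females, beside the lowest clone above 0 and the 1st and 5th percentiles of clones above 0 on the same array (horizontal marks). In the 7 earlier females cf5 lies below the 1st percentile, at 0.120 to 0.206, and in the 6 maturing females it lies at 1.05 to 2.85.

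Within an array the scaling cancels from the ratio of 2 clones, so its change can be read without regard to the median. From post-vitellogenesis to maturation the log2 ratio of cf5 over the mean of the protein S clones rose by 5.11, and from late vitellogenesis by 5.83. It lay between -5.57 and -2.69 in post-vitellogenesis, highest in female 31, and between -0.23 (female 29) and 1.22 (female 30) in maturation. The log2 ratio of cf5 over the factor C-like clone changed by -0.26 from late vitellogenesis to post-vitellogenesis and by 2.31 from there to maturation. It was -0.87 to -0.01 in the earlier females and 1.52 to 2.51 in the maturing ones, so it was higher in every maturing female than in any earlier one. In the earlier females both of these clones stood near the low end of the arrays, so their ratio there is one of 2 low values. The clones of these ratios were selected for their stage differences, so the shifts are a description without a test. The level of these ratios says nothing of relative abundance, since each clone hybridizes with its own strength.

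The clones most like each of the 4 were sought over the 13 females by Pearson r of log2 ratios, a measure that the stages dominate. For protein S, after its own other clone, these were aromatase # 196 (r = 0.946 with # 199) and a transferrin receptor-like clone (# 201, r = 0.941), the receptor for iron uptake. For cf5 they were the hormone precursors vasotocin (# 238, r = 0.985) and isotocin (# 239, r = 0.983), followed by clones similar to dystrophin (# 237, r = 0.983) and pendrin (# 236, r = 0.980), an anion transporter. For the factor C-like clone they were clones similar to the forkhead factor FOXO3 (# 247, r = 0.951) and the ring finger protein RNF24 (# 244, r = 0.949). After the stage means were removed, protein S # 199 remained closest to # 200 (r = 0.981) and to aromatase # 196 (r = 0.877). The clones closest to cf5 and to the factor C-like clone were then 1RT142I07_A_E04 (r = 0.959) and 1RT24F23_B_C12 (r = 0.881), for which no gene is named in the sources used here. These values are the highest of 8077 and are given without a test.

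Of the blood vessel and inflammation clones of the same tables, all 5 of 5 were called higher in maturation than in post-vitellogenesis, beside 1.81% of all clones, with a median log2 difference of 1.78 against 0.01 over all clones. They were vasotocin (# 238, 4.78 ± 0.17 SE on the log2 scale), a clone similar to angiotensin-converting enzyme 2 (# 245, 1.78 ± 0.19 SE), the chemokine cxcl14 (# 250, 2.24 ± 0.25), and clones similar to RAMP1 (# 253, 0.59 ± 0.11), a receptor partner, and to RGS18 (# 242, 1.29 ± 0.18), a regulator of G protein signalling in blood cells. Of the 6 clones of proteases and their surroundings, 4 were called higher, beside 1.81% of all clones, and 2 lower, beside 2.76%. Higher were clones similar to serine protease 23 (# 296, a log2 difference of 1.03), ADAM22 (# 258, 1.23), tripeptidyl peptidase 1 (# 259, 0.66) and basigin (# 233, 0.88), an inducer of matrix proteases. Lower were those similar to a microsomal dipeptidase (# 220, fell by 0.57 on the log2 scale) and to the collagen chaperone HSP47 (# 216, fell by 0.62). The study chose both lists' clones on these samples, so their direction is no independent evidence. Like cf5, vasotocin had post-vitellogenesis positions near 0, from 1.8% to 8.9%, whereas serine protease 23 was at 78.7% in female 14. The vasotocin ratios in these females, 0.344 (female 15) to 0.440 (female 14), were also toward the low end of the arrays, where a small movement may not be seen.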

How the data were processed

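The authors hybridized 1 nylon cDNA array per female with RNA labelled with phosphorus-33, excluded spots with a low vector oligonucleotide signal, corrected each spot for its DNA and divided it by the array median. The deposited value is this ratio, used here without further scaling. What a value of 0 stands for is not given in the sources used here. The 8077 clones above 0 on every array were compared on the log2 scale with limma 3.58.1 in R 4.3.3, all 3 stages in 1 fit and the 7 earlier against the 6 maturing females in another, at a Benjamini-Hochberg adjusted p under 0.05. SAM, the software of the study's methods, was not run. The script was tested on simulated data, and exact permutation tests used SciPy 1.17.1. The 4 clones and all lists were chosen with earlier results of these data known: the 4 clones are always named, with lists from the study's tables and the clones of highest r. Orders of females and ratios within an array were added after the values were seen. Alternatives were 0.1 added with all clones kept, quantile or geometric mean scaling, arithmetic means, array weights, fits of 2 stages, a minimum median ratio of 0.5, and each female left out. The number of arrays limits precision. Further clotting genes and markers of red cells, liver and oocyte were not analysed here, since the sources used here name no gene for clones outside the tables. Another marker clone of the lists is not reported here.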

Additional observations from a re-analysis of the deposited data

How the results depend on the processing

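Of the 288 alternative values of the clotting clones' log2 stage differences, 4 were counted as moved, all with 0.1 added to every ratio. These were cf5 at 2.89 from post-vitellogenesis, 2.89 from late vitellogenesis and 2.89 from all earlier females to maturation, and the factor C-like clone at 1.09 from late vitellogenesis. The cutoff for a move is not stated here. With 0.1 added, the factor C-like clone from all earlier females to maturation was at 0.98 in place of 1.29 ± 0.17 (SE) and was not counted. Some of the other 284 values could not move, since leaving out a female of a stage outside a comparison leaves its difference unchanged. The count of 284 is therefore no measure of robustness. Fits of 2 stages and the minimum median ratio of 0.5 were used for the counts of called clones only and are not among the 288 values. That minimum leaves out cf5 and the factor C-like clone. Over the other alternatives the fold from late vitellogenesis to maturation ran from 7.43 to 12.7 for cf5 and 2.13 to 3.29 for the factor C-like clone. It ran from 4.67 to 5.51 for protein S # 199 and from 4.66 to 5.67 for # 200. From post-vitellogenesis to maturation protein S ran from 2.53 to 4.60 (# 199) and 2.30 to 4.43 (# 200), lowest without female 15 and highest without female 31. Without female 31 the step from late vitellogenesis to post-vitellogenesis shrank to -0.13 and -0.18 for protein S. The counts of clones called, which set the background shares, moved more. With array weights they were 22 from late vitellogenesis to post-vitellogenesis (2 in the main analysis), 974 from post-vitellogenesis to maturation (369), 1355 from late vitellogenesis to maturation (326) and 1123 for earlier against maturing females (715). With 0.1 added the comparison of late vitellogenesis with maturation called 187. Fits of the 2 stages alone and a minimum median ratio of 0.5 each left 1 clone between late vitellogenesis and post-vitellogenesis. With each female left out the counts ran from 0 to 4, from 149 (without female 15) to 531, from 121 (without female 4) to 433, and from 495 to 805 in the order given. Without female 14 the count from post-vitellogenesis to maturation was 199. The share of higher clones in it was 39.6% with all females, 57.3% without female 14 and 57.0% without female 15. The count from late vitellogenesis to maturation was 214, 123 or 204 without female 2, 3 or 27. The share of higher clones among calls from late vitellogenesis to maturation was 61.0% and fell to 46.3% with geometric mean scaling. The correlation of the protein S clones among the earlier females passed without female 3 or 4 (adjusted p = 0.0333 by the exact permutation test) and did not pass without female 2, 13, 14, 15 or 31 (adjusted p = 0.10, r = 0.983 to 0.997). It passed among the maturing females with quantile or geometric mean scaling (adjusted p = 0.0167). Both clones count as the same gene, and the study's clustering by correlation on these arrays had placed them side by side. Nothing is therefore read from which settings passed. No paired analysis was possible because the ovaries came from separate females.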
